A study of Mus musculus with 9 samples.

Results

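Coagulation at the vessel wall is set by a small group of genes, and 8 of them were followed here across photodynamic intervention. These were the protease-activated receptors F2r and F2rl1, the initiator F3, the anticoagulants Thbd and Tfpi, and the plasminogen system genes Plat, Plau and Plaur. They were taken by name from the 54532 genes of the expression table, in a choice made with earlier results of these data known, and each was found at 1 identifier. RNA was sequenced from 9 libraries of B.END3, a mouse line that the labels describe as brain microvessel endothelial cells of strain C57BL/6, although the text on cell growth calls the cells rat. The 3 Ctrl libraries were labelled untreated. The 3 Ep1 and 3 Ep2 libraries came from monolayers incubated for 90 min with porfimer sodium, a photosensitizer, at 300 μg/mL and then exposed to a 635 nm laser at 100 mW/cm2, with a light dose of 10 J/cm2 for Ep1 and 20 J/cm2 for Ep2. Whether Ctrl cells received the photosensitizer or the light alone, how long after the exposure RNA was taken, and whether the 3 libraries of a group came from separate cultures is not given in the sources used here, so the p-values measure only the spread between these libraries, which may be technical.

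At 20 J/cm2, 7 of the 8 genes were higher than in Ctrl and none was lower, beside 23.9% and 29.3% of all tested genes. F2rl1 and Thbd, a receptor and an anticoagulant, rose most, to means 2.11 and 2.08 times those of Ctrl. F2r, F3, Plat, Plau and Plaur rose by smaller steps, and Tfpi did not pass the test. The Ep2 libraries of both Plau and Tfpi overlapped those of Ctrl, and the Plau call was lost when any of several single libraries was left out. At 10 J/cm2, F3 and Plaur were the 2 genes that rose with all libraries kept, beside 6.32% of all tested genes. The outcomes for F3 and Plau at this dose varied when single libraries were left out. Between the doses, F2r, F2rl1, F3, Thbd and Plat were higher at the higher dose, beside 18.8% of all tested genes. Plau and Plaur were not separated.

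Tissue factor, the product of F3, binds factor VII on the cell surface and starts the cascade that makes thrombin, and the product of Tfpi blocks this step. Thrombin cleaves the receptor PAR1, encoded by F2r, whereas PAR2, encoded by F2rl1, is opened by trypsin-like proteases and by the complex of tissue factor with its factors. Thrombomodulin, the product of Thbd, binds thrombin and turns it towards activation of protein C, an anticoagulant. Plat and Plau encode the tissue and urokinase plasminogen activators, which make the clot-dissolving protease plasmin, and Plaur encodes the receptor that holds urokinase at the cell surface. Resting endothelium is known for thrombomodulin on its surface and for little tissue factor.

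The start regions are shown first, as a description of the genes. RefSeq windows on GRCm38.p6 were matched for 4 of the 8 genes, F2r, F3, Tfpi and Plaur, the genes without one being F2rl1, Thbd, Plat and Plau. For Tfpi, which has 2 windows, the one nearest to its listed start is shown. Each sequence is the 250 bases before the start site, read 5′ to 3′ on the strand of the gene, with matches to the AP-1 letters TGANTCA in capitals. The window of F2r is chr13:95618467-95618716 on the minus strand, that of F3 is chr3:121723287-121723536 on the plus strand, that of Tfpi is chr2:84476760-84477009 on the minus strand, and that of Plaur is chr7:24462233-24462482 on the plus strand.
F2r: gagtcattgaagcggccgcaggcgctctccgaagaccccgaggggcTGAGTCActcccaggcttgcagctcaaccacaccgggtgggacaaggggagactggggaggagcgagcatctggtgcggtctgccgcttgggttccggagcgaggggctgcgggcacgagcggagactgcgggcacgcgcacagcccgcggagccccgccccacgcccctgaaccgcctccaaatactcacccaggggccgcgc
F3: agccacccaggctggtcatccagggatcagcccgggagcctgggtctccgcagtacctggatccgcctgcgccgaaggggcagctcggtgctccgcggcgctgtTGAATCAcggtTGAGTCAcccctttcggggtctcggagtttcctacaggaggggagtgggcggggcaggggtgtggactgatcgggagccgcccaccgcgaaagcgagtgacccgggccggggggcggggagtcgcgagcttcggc
Plaur: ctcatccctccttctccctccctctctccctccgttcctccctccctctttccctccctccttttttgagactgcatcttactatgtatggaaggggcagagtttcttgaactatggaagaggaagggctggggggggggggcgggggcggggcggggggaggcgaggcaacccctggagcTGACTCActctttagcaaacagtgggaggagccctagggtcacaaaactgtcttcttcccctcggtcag
Tfpi: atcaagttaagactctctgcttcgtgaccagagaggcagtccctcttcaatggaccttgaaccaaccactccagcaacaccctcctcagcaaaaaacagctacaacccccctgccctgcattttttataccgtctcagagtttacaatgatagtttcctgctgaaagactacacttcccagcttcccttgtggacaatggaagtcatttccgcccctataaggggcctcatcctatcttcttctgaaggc

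The AP-1 letters occurred once in F2r, at bases -204 to -198 counted back from -1 just before the start site, and once in Plaur, at -69 to -63. F3 held 2 of them, at -146 to -140 and at -135 to -129, and Tfpi held 0. Of 32851 RefSeq windows of the same length, 6.75% held at least 1 such match. The other letters searched on both strands were the cyclic AMP element TGACGTCA, the NF-κB letters, which are GGG and CC with any 5 bases between them, and the SP1 letters GGGCGG, which 1.55%, 45.8% and 32.7% of the windows held. The cyclic AMP letters were in 0 of the 4 windows. The NF-κB letters matched 4 times in F3 and 2 times in Plaur, as pairs shifted by 1 base, and were in neither F2r nor Tfpi. The SP1 letters matched once each in F2r and Tfpi and 3 times each in F3 and Plaur, with 1 of the F3 matches inside an NF-κB match. The share of G and C bases was 70.8% in F2r, 70% in F3, 59.6% in Plaur and 48.4% in Tfpi. A match of letters is a description of the window and not a bound site, and a link of the letters to the changes in level was not tested.

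The study picked F2rl1 from these same libraries as 1 of the genes to measure by qRT-PCR. The rise of F2rl1 here is therefore no independent evidence of that choice. The genes whose rise the paper reports from qRT-PCR do not include F2rl1, and those measurements are not analysed here. The 2 designed primers are shown because they mark the part of the messenger chosen for amplification.
F2rl1 forward: gagtagggctccgagtttcg
F2rl1 reverse: ctgttgttgcgtcccggtg

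In the GENCODE M39 transcript ENSMUST00000022185.11, which is 2825 bases long, the forward primer lies in exon 1 from base 105, ahead of the coding start at base 166. The site of the reverse primer spans bases 251 to 269 in exon 2, so the product of 165 bases crosses the intron. A further F2rl1 transcript, ENSMUST00000550833.1, holds the forward site and not the reverse one. The values below are for the whole gene and do not separate the transcripts.

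Values are FPKM, the fragments on a gene scaled to its length and to the size of the library, as deposited. The libraries held between 16240688 and 19509225 fragments on genes, and the 8 genes drew from 73 fragments, for Thbd in its lowest library, to 4185, for Plaur in its highest, so counting noise weighs most on Thbd. Differences are log2 fold changes on the log2(FPKM + 1) scale, which understates the change of low genes, from a limma model over the 11727 genes that reached 1 FPKM in 3 or more libraries. All 8 genes passed this filter, and 0 of them are overlapped by another listed gene. A gene is said to rise or fall where its adjusted p-value was below 0.05, and is called a DEG where its log2 fold change was also beyond 0.6 in size. Ep2 replicate 1 stood apart from the other libraries: chi-square per degree of freedom over genes was 10.1 and 15.2 against its 2 fellows and from 2.81 to 5.66 between all other replicates of a group. Its values are therefore given one by one, and the Ep2 results of the 8 genes are repeated without it.

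The endothelial label was checked against marker genes, and most of the defining ones went against it. Of 16 endothelial markers 4 passed the filter, with a mean FPKM in Ctrl of 59.4 for Ly6c1, 6.90 for Flt1, 2.09 for Egfl7 and 1.32 for Eng, and Flt1 rose in Ep2 by 0.59 on the log2 scale (adjusted p = 9.67e-05). The junction, receptor and lineage genes of the list were low or at 0 in Ctrl, with a mean FPKM of 0.143 for Pecam1, 0.857 for Cdh5, 0.0407 for Kdr and 0.0254 for Cldn5, while Emcn, Erg and Robo4 were at 0 in all 9 libraries. Among 7 epithelial markers, Krt8, Krt18 and Krt19 stood at 640, 237 and 174 FPKM in Ctrl, while Epcam, Cdh1 and Krt14 were at 0.812, 0.0338 and 0.0199 and Krt5 at 0 in all libraries. The summed epithelial markers ranged from 1029 to 1081 FPKM in Ctrl, from 937 to 1041 in Ep1 and from 1155 to 1372 in Ep2, and the summed endothelial markers from 69.5 to 73.4, from 62.3 to 69.8 and from 67.4 to 95.4. The summed macrophage markers ranged from 23.3 to 25.1 in Ctrl, from 20.2 to 25.2 in Ep1 and from 76.7 to 92.0 in Ep2, almost all of it Cd68, with Itgam at 0 in all libraries and Ptprc and Adgre1 at no more than 2 fragments in any. The summed mural markers lay between 2.71 and 4.51 FPKM and the fibroblast markers between 37.1 and 49.6 over the 9 libraries. The mitochondrial share of fragments ranged from 1.901% to 1.986% in Ctrl, from 1.997% to 2.082% in Ep1 and from 2.035% to 2.490% in Ep2. The epithelial and macrophage sums and this share thus moved with the rise of the coagulation genes in Ep2, and their part in it was not tested. In such bulk libraries, a change in the mix of cells and a change in RNA per cell cannot be told apart.

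**Figure D1:**
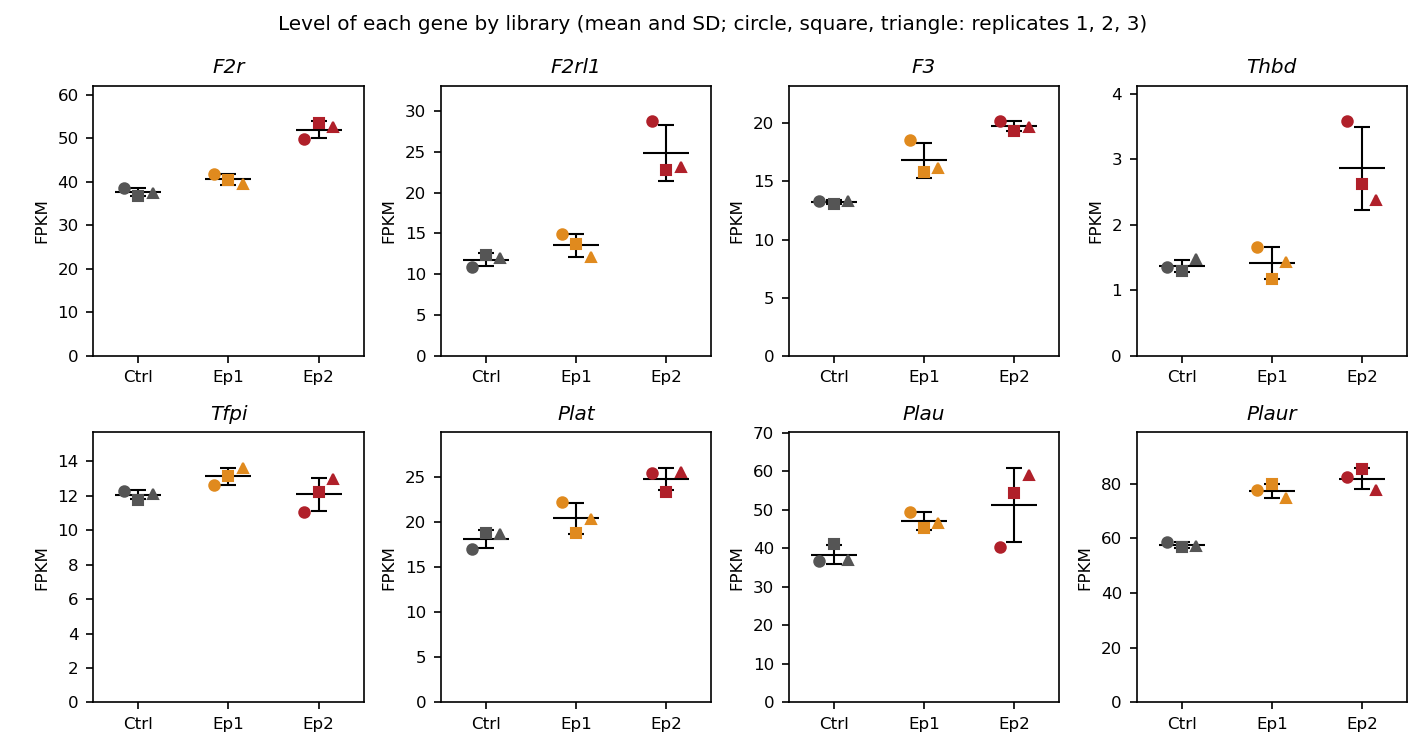
Level of each of the 8 genes in FPKM (y axis, from 0) in the 9 libraries grouped as Ctrl, Ep1 and Ep2 (x axis). Circles, squares and triangles are replicates 1, 2 and 3, the long line is the group mean and the bars are 1 SD (n = 3). For F2rl1 and Thbd all 3 Ep2 libraries lie well above the other 6, while for Tfpi the Ep2 range covers that of Ctrl.

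Among the receptors, F2r was the more abundant. F2r (ENSMUSG00000048376) was at 38.6, 36.8 and 37.4 FPKM in Ctrl, 41.8, 40.4 and 39.4 in Ep1 and 49.9, 53.5 and 52.7 in Ep2. The 3 groups did not overlap, and the means were 37.6 ± 0.929, 40.6 ± 1.20 and 52.0 ± 1.91 FPKM (SD, n = 3). Against Ctrl, the log2 fold change was 0.11 ± 0.04 (SE; limma adjusted p = 0.128) in Ep1, which did not pass, and 0.46 ± 0.04 (adjusted p = 3.08e-05) in Ep2. F2r was also higher in Ep2 than in Ep1, by 0.35 ± 0.04 (adjusted p = 0.000207).

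F2rl1 (ENSMUSG00000021678) was at 10.86, 12.40 and 12.04 FPKM in Ctrl, 14.88, 13.66 and 12.07 in Ep1 and 28.73, 22.72 and 23.07 in Ep2. The Ep1 libraries overlapped those of Ctrl, whereas every Ep2 library was above all others. The Ctrl mean was 11.8 ± 0.807 FPKM and the Ep2 mean 24.8 ± 3.37 (SD, n = 3), a ratio of 2.11. In Ep1 the change from Ctrl was 0.18 ± 0.10 on the log2 scale (adjusted p = 0.254). In Ep2 it was 1.01 ± 0.10 (adjusted p = 4.47e-05), the largest of the 8 and number 61 from the top among the 11727 genes. Between the doses it was 0.83 ± 0.10 (adjusted p = 0.000208). Without Ep2 replicate 1, its highest library, the Ep2 value against Ctrl was 0.91 (adjusted p = 5.08e-05), still a DEG.

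F2r and F2rl1 are neighbours. The table places F2rl1 at chr13:95511732-95525227 and F2r at chr13:95601803-95618487, both on the minus strand, on coordinates that match GRCm38. The 76575 bases between them hold 2 listed genes, Gm48730, at no more than 0.225 FPKM in any library, and Gm48731, at 0 in all. The ratio of F2rl1 to F2r was 0.281, 0.337 and 0.322 in Ctrl, 0.356, 0.338 and 0.306 in Ep1 and 0.576, 0.425 and 0.438 in Ep2. The Ep2 ratios were all above those of both other groups, and the Ep2 mean was 1.53 times the Ctrl mean (two-sided exact permutation p = 0.1, the smallest that 3 libraries against 3 allow, and 0.129 adjusted over the 9 ratio comparisons made).

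F3 (ENSMUSG00000028128, chr3:121723537-121735048, plus strand), the initiator, was at 13.36, 13.03 and 13.34 FPKM in Ctrl, 18.56, 15.78 and 16.18 in Ep1 and 20.18, 19.35 and 19.68 in Ep2. Each step of dose lay wholly above the last. Against Ctrl, F3 rose by 0.32 ± 0.06 on the log2 scale at the lower dose (adjusted p = 0.0130) and by 0.54 ± 0.06 at the higher (adjusted p = 6.71e-05), and Ep2 exceeded Ep1 by 0.22 ± 0.06 (adjusted p = 0.0130). The Ep1 call was lost without Ctrl replicate 2, with the change at 0.31 (adjusted p = 0.0654). In that setting, the Ep1 calls over all genes numbered 192, beside 1324 with all libraries. The call between the doses was lost without Ep1 replicate 2 (adjusted p = 0.0533) or Ep1 replicate 3 (adjusted p = 0.0536).

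The anticoagulants Thbd and Tfpi parted. Thbd (ENSMUSG00000074743, chr2:148404466-148408188, minus strand) was the scarcest of the 8, above 9.33% of the tested genes in Ctrl. It was at 1.35, 1.29 and 1.48 FPKM in Ctrl, 1.66, 1.17 and 1.43 in Ep1 and 3.58, 2.63 and 2.38 in Ep2. Ep1 enclosed the Ctrl range and Ep2 lay above both. Its log2 fold change was 0.69 ± 0.12 in Ep2 (adjusted p = 0.00108), 0.02 ± 0.12 in Ep1, which did not pass (adjusted p = 0.917), and 0.67 ± 0.12 between the doses (adjusted p = 0.00183). At this level the pseudocount of 1 shrinks the change: the Ep2 mean was 2.08 times that of Ctrl, and voom on the fragments recovered from the values gave a log2 fold change of 1.05 (adjusted p = 4.22e-05). Without Ep2 replicate 1 the change was 0.56 (adjusted p = 0.00155), which passed the p-value but no longer the size set for a DEG.

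Tfpi (ENSMUSG00000027082, chr2:84432855-84476775, minus strand) was at 12.28, 11.76 and 12.14 FPKM in Ctrl, 12.65, 13.16 and 13.63 in Ep1 and 11.08, 12.22 and 12.96 in Ep2. The Ep1 libraries were all above Ctrl and the Ep2 libraries spread to both sides of it. No comparison passed, with log2 fold changes of 0.11 (95% interval -0.02 to 0.25, adjusted p = 0.220) in Ep1 and 0.00072 (-0.13 to 0.13, adjusted p = 0.993) in Ep2, and -0.11 (-0.24 to 0.02, adjusted p = 0.139) between the doses.

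The ratio of F3 to Tfpi, the initiator to its inhibitor, was 1.09, 1.11 and 1.10 in Ctrl, 1.47, 1.20 and 1.19 in Ep1 and 1.82, 1.58 and 1.52 in Ep2. It lay higher at each dose with no overlap, the Ep2 mean being 1.49 times that of Ctrl. Each of its 3 comparisons had the smallest p the design allows (two-sided exact permutation p = 0.1, adjusted 0.129).

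**Figure D2:**
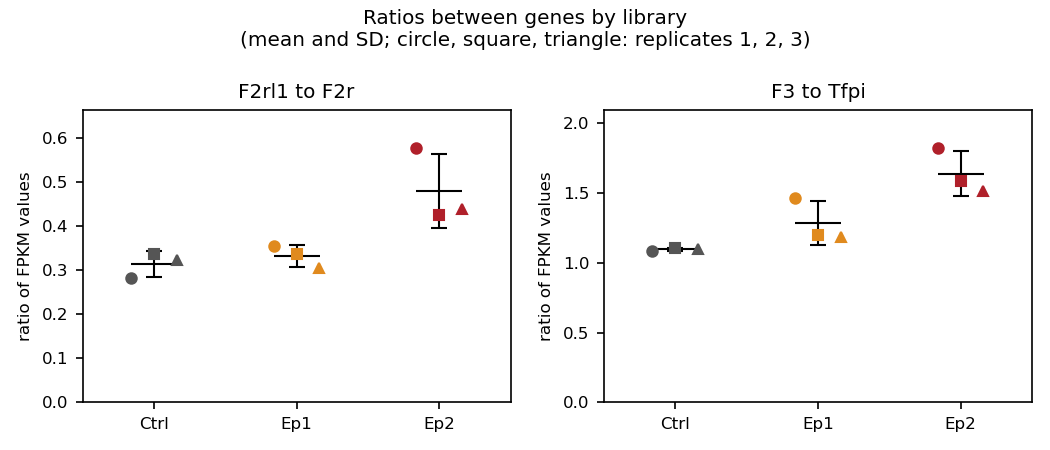
Ratios of FPKM within each library (y axis, from 0) for F2rl1 to F2r and F3 to Tfpi in Ctrl, Ep1 and Ep2 (x axis), with circles, squares and triangles for replicates 1, 2 and 3, lines for the group means and bars for 1 SD (n = 3). F3 to Tfpi steps up from about 1.10 in Ctrl to between 1.52 and 1.82 in Ep2, and F2rl1 to F2r is highest in Ep2, between 0.425 and 0.576.

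All 3 plasminogen activator genes were higher in Ep2. Plat (ENSMUSG00000031538, chr8:22757727-22782844, plus strand) was at 17.0, 18.8 and 18.7 FPKM in Ctrl, 22.2, 18.8 and 20.3 in Ep1 and 25.5, 23.4 and 25.6 in Ep2. Ep1 lay just above Ctrl, and Ep2 lay clear of both. At the higher dose Plat rose by 0.43 ± 0.07 (log2; adjusted p = 0.000593). It had a change of 0.16 ± 0.07 in Ep1 that did not pass (adjusted p = 0.150), and rose by 0.27 ± 0.07 between the doses (adjusted p = 0.00998).

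Plau (ENSMUSG00000021822, chr14:20836660-20843385, plus strand) was at 36.9, 41.2 and 37.1 FPKM in Ctrl, 49.6, 45.2 and 46.5 in Ep1 and 40.4, 54.4 and 59.0 in Ep2. Its Ep2 libraries disagreed, replicate 1 lying within the Ctrl range and the other 2 above every other library. The change on the log2 scale passed in Ep2, at 0.39 ± 0.12 (adjusted p = 0.0237), and passed neither in Ep1, at 0.29 ± 0.12 (adjusted p = 0.154), nor between the doses, at 0.10 ± 0.12 (adjusted p = 0.526). The Ep2 call was lost without Ctrl replicate 1 (adjusted p = 0.0724), Ctrl replicate 3 (0.0640), Ep2 replicate 2 (0.0767) or Ep2 replicate 3 (0.0710). Without Ep2 replicate 1 the values were 0.55 for Ep2 against Ctrl (adjusted p = 0.000157), 0.26 between the doses (adjusted p = 0.00996), and 0.29 for Ep1 against Ctrl (adjusted p = 0.0126), all past the threshold. Ep2 replicate 1 enters the comparison of Ep1 with Ctrl through the spread shared by all libraries, and its removal left the Ep1 value unchanged.

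Plaur (ENSMUSG00000046223, chr7:24462484-24475968, plus strand) was the most abundant of the 8, above 92.1% of the tested genes in Ctrl. It was at 58.8, 56.9 and 57.1 FPKM in Ctrl, 77.6, 79.8 and 74.6 in Ep1 and 82.4, 85.5 and 77.6 in Ep2. Both doses lay above Ctrl, and they overlapped each other. Plaur rose by 0.42 ± 0.05 on the log2 scale at the lower dose (adjusted p = 0.00464) and by 0.50 ± 0.05 at the higher (adjusted p = 2.78e-05), with 0.08 between the doses (95% interval -0.02 to 0.18, adjusted p = 0.180). After centring each library on its median the difference between the doses was 0.14 (adjusted p = 0.0324).

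**Figure D3:**
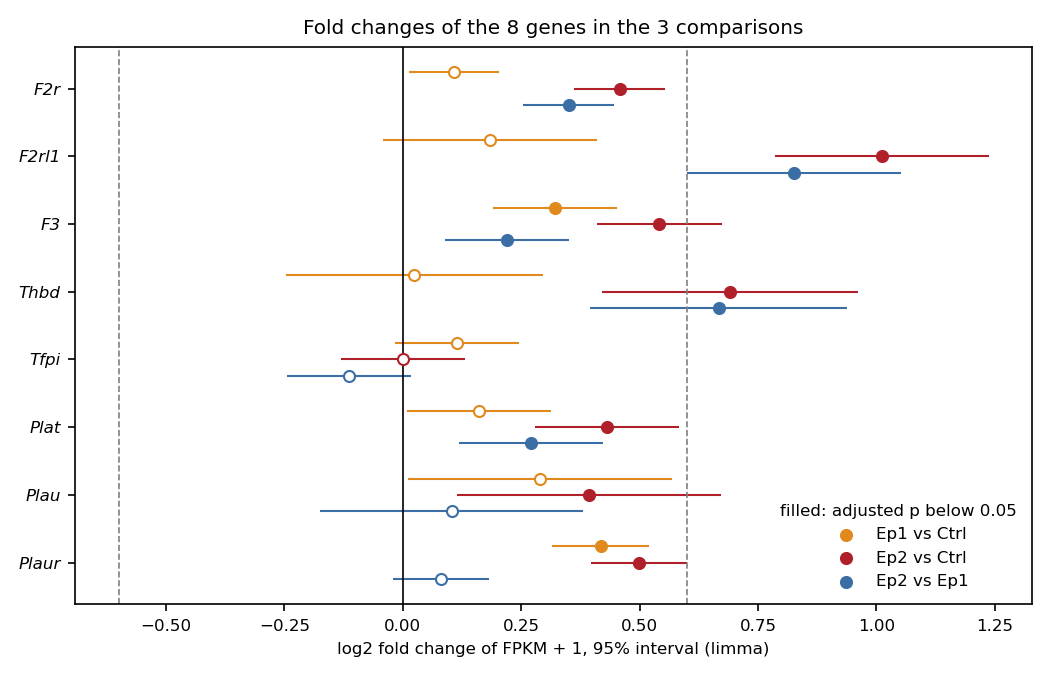
Log2 fold change on the log2(FPKM + 1) scale (x axis) of each of the 8 genes (y axis) for Ep1 against Ctrl, Ep2 against Ctrl and Ep2 against Ep1, with 95% intervals from the limma model, filled where the adjusted p-value was below 0.05, and dashed lines at the DEG size of 0.6 in either direction. The Ep2 intervals of 7 genes lie above 0, from 0.39 for Plau to 1.01 for F2rl1, and that of Tfpi is centred on 0.

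Without Ep2 replicate 1, the changes of the other genes in Ep2 against Ctrl were 0.49 for F2r, 0.53 for F3, 0.41 for Plat and 0.49 for Plaur, all still called, and 0.057 for Tfpi, which did not pass (adjusted p = 0.349). Between the doses, they were 0.38 for F2r, 0.72 for F2rl1, 0.205 for F3 (adjusted p = 0.0302), 0.54 for Thbd and 0.25 for Plat (adjusted p = 0.0251), all called, -0.06 for Tfpi and 0.07 for Plaur. The Ep2 mean over that of Ctrl was then 1.38 for the ratio of F2rl1 to F2r and 1.41 for that of F3 to Tfpi.

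Counted together, 2 of the 8 genes rose in Ep1, against 6.32% of all tested genes that rose there, and none was a higher DEG, beside 0.571%. In Ep2, 7 rose against 23.9% of all tested genes, and 2 of them were higher DEGs against 3.30%. Between the doses, 5 rose against 18.8%, and 2 were higher DEGs against 1.94%. No gene of the 8 fell in any comparison at the adjusted threshold. None did at an unadjusted p-value under 0.05, where 5, 7 and 5 rose, with no share over all genes counted. None did with voom, where 2, 7 and 5 rose. Over all genes, voom called 1922, 7059 and 5856 of 14112 in either direction. The Ep1 libraries were all above Ctrl for 6 of the 8 genes, against 20.8% of all tested genes, the Ep2 libraries for 6, against 27.0%, and the Ep2 libraries were all above Ep1 for 5, against 24.1%. The median log2 fold change of the 8 was 0.17, 0.48 and 0.25 in the 3 comparisons, beside -0.01, -0.03 and -0.01 over all tested genes. Both doses were compared with the same Ctrl libraries, and the 8 genes were picked with results of these data known, so the counts describe them and are no test.

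The order of the levels shifted with dose. In Ctrl, Plaur led, followed by Plau and F2r, whose libraries overlapped, then Plat and F3, then Tfpi and F2rl1, which also overlapped, and last Thbd. In Ep1 the order was the same except that F2rl1 and Tfpi, still overlapping, had changed places and Plau was separate from F2r. In Ep2, F2rl1 had moved past F3 and Tfpi and overlapped with Plat, both at a mean of 24.8 FPKM, while F2r and Plau overlapped behind Plaur.

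The rest of the coagulation and fibrinolysis system was given by 45 further genes, of which 14 passed the filter. A further 22 had at most 3 fragments in every library, 11 of these at 0 in all, among them the genes of fibrinogen (Fga, Fgb, Fgg), of factors IX and X (F9, F10) and of plasminogen (Plg). Neither of the other receptors of the family, F2rl2 and F2rl3, passed, at no more than 0.108 and 0.136 FPKM. In Ep1, 0 of the 14 rose and 2 fell, beside 6.32% and 4.97% of all tested genes. At an unadjusted p-value under 0.05, 4 were higher and 5 lower, with no share over all genes counted. Voom, which tested 19 of the 45, called 1 higher and 3 lower, beside 1922 of 14112 genes called in either direction. In Ep2, 5 rose and 4 fell, beside 23.9% and 29.3%, and between the doses 1 rose and 2 fell, beside 18.8% and 25.2%. The median log2 fold change of the 14 was 0.04, 0.0025 and 0.08.

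Serpinb2, which encodes an inhibitor of urokinase, was a DEG. It was at 6.12, 6.27 and 6.97 FPKM in Ctrl, 10.5, 7.87 and 7.68 in Ep1 and 9.92, 10.1 and 11.3 in Ep2. Both treated groups lay above Ctrl and overlapped each other. Its change on the log2 scale was 0.61 ± 0.10 in Ep2 (adjusted p = 0.000920) and 0.37 ± 0.10 in Ep1, which did not pass (adjusted p = 0.0523). The Ep2 change fell below the size set for a DEG without Ctrl replicate 1 (0.58), Ctrl replicate 2 (0.597) or Ep2 replicate 3 (0.56). The adjusted p-value still passed in each case.

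The called genes that follow were chosen after their values were seen. In Ep2, Procr, the gene of the endothelial protein C receptor and the most abundant tested anticoagulant, was at 63.7, 48.4 and 44.2 FPKM beside 41.5, 41.7 and 40.8 in Ctrl, a log2 fold change of 0.31 (adjusted p = 0.0495). It was the weakest call, since leaving out any 1 library other than Ep2 replicate 3 ended it, with adjusted p-values from 0.0553 to 0.106, and without Ep2 replicate 1 the change was 0.16 (adjusted p = 0.0583). Lman1, a cargo receptor for factors V and VIII, rose by 0.21 (adjusted p = 0.00188), and Anxa2, whose product helps to hold plasminogen at the cell surface, rose by 0.19 (adjusted p = 0.00301). Its partner S100a10, the most abundant of the plasminogen genes, had a change of 0.10 that did not pass (adjusted p = 0.0623), and Mcfd2, the partner of Lman1 and the most abundant of the coagulation factor genes, one of -0.05 (adjusted p = 0.504).

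Of the 4 that fell in Ep2, Serpine2, the gene of the thrombin inhibitor protease nexin 1, changed most, from 7.72, 7.48 and 7.61 FPKM in Ctrl to 5.31, 5.11 and 5.46, a log2 fold change of -0.45 (adjusted p = 6.94e-05). Lrp1, a receptor that clears protease complexes from the cell surface, was at -0.39 (adjusted p = 0.000226), Pros1, the gene of protein S, at -0.25 (adjusted p = 0.0215) and Ggcx, the vitamin K-dependent carboxylase, at -0.22 (adjusted p = 0.0258). The Pros1 call was lost without Ctrl replicate 1 (adjusted p = 0.0729) or Ep2 replicate 1 (adjusted p = 0.0594). The Ggcx call was lost after median-centring (adjusted p = 0.0634) and without Ctrl replicate 1, Ctrl replicate 3, Ep2 replicate 1 or Ep2 replicate 2 (adjusted p from 0.0609 to 0.0808). The 2 that fell in Ep1 were Vkorc1, the vitamin K reductase, at -0.42 (adjusted p = 0.0342) and Lrp1 at -0.28 (adjusted p = 0.0131), both lost without Ctrl replicate 1, Ctrl replicate 2 or Ep1 replicate 3. The Vkorc1 call was also lost without Ctrl replicate 3, Ep1 replicate 2 or Ep2 replicate 2 (adjusted p from 0.0523 to 0.0781) and with voom (adjusted p = 0.117), which kept that of Lrp1 (adjusted p = 0.000722). Between the doses, Anxa2 rose by 0.31 (adjusted p = 0.000256), while Serpine2 and Pros1 were at -0.58 (adjusted p = 2.95e-05) and -0.38 (adjusted p = 0.00369). Without Ep2 replicate 1, the calls of Serpinb2 (0.65), Lman1 (0.23), Anxa2 (0.19), Serpine2 (-0.45) and Lrp1 (-0.39) in Ep2 against Ctrl were kept, as were those of Anxa2 (0.31), Serpine2 (-0.58) and Pros1 (-0.32) between the doses.

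**Figure D4:**
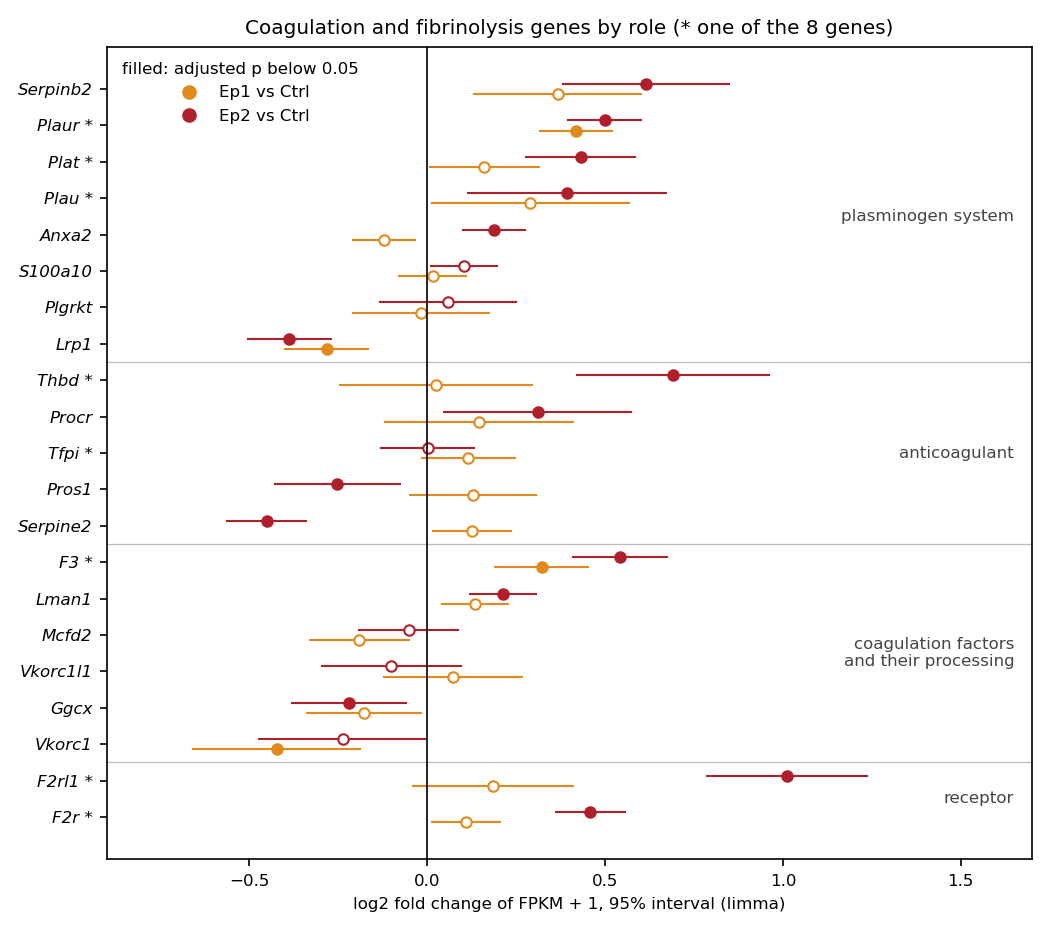
Log2 fold change on the log2(FPKM + 1) scale with 95% intervals (x axis) of the 8 genes, marked with asterisks, and of further coagulation and fibrinolysis genes that passed the filter (y axis, grouped by role), for Ep1 and Ep2 against Ctrl, filled where the adjusted p-value was below 0.05. Of the further genes shown, Serpinb2 lies farthest to the right in Ep2, at 0.61, and Serpine2 farthest to the left, at -0.45.

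The genes whose pattern was most like that of the 2 DEGs were sought by the root mean square difference, over the 9 libraries, of log2(FPKM + 1) from the Ctrl mean of the gene. For F2rl1, among 8231 genes, they were Tnfrsf23 at a difference of 0.0800, Rnf144b at 0.0962 and Mgarp at 0.103, with Ep2 log2 fold changes of 0.96, 0.90 and 1.07. For Thbd, among 8232 genes, they were Sel1l at 0.0645, Prr13 at 0.0685 and P4hb at 0.0813, with Ep2 changes of 0.68, 0.68 and 0.62. The pseudocount of 1 shrinks the change of Thbd more than those of its more abundant matches. Mean FPKM went from 1.37 in Ctrl to 2.86 in Ep2 for Thbd, and from 13.2 to 21.8 for Sel1l. It went from 81.4 to 132 for Prr13 and from 567 to 875 for P4hb. The likeness to Thbd thus holds on this scale and not for the ratio of means. Tnfrsf23 encodes a decoy receptor of the TNF receptor family, and Sel1l and P4hb encode proteins of the endoplasmic reticulum that handle misfolded proteins and disulfide bonds. These are likenesses of level over 9 libraries of 3 groups, with no test.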

How the data were processed

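Groups were taken from the library titles (Ctrl, Ep1, Ep2; 3 libraries each). The authors sequenced the RNA as paired-end reads and deposited 1 FPKM value per gene and library, normalized to gene length and library size. The submitters' processing notes name Bowtie 0.12.2 and mm8, the methods name GRCm39, and the listed coordinates overlapped the GRCm38 position for 99.9% of 36413 genes and the GRCm39 position for 12.4%. They are given here as GRCm38. The counter and the strand setting are not given in the sources used here. The 9 single-library tables equalled the joint table, and 0 value columns were left unmapped.

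FPKM times gene length was a whole multiple of 1 step per library for 100% of the low values (tolerance 0.05), which gave the fragments per gene and a depth of 18289776 to 19509225 for Ctrl, 16797492 to 18603707 for Ep1 and 16240688 to 18575984 for Ep2. A count of 0 allows up to 3 fragments, for counting error only. The spread within groups exceeded counting noise.

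The tests used log2(FPKM + 1), kept genes that reached 1 FPKM in 3 or more libraries, and fitted 1 limma 3.58.1 model (R 4.3.3; trended, robust eBayes; groups as the sole term) to all 9 libraries, with Benjamini-Hochberg adjustment over all tested genes within each comparison. Ratios used exact permutation tests. The steps were tested on simulated data. The alternatives were a pseudocount of 0.1, no filter, a filter of 5 FPKM, median-centring, only the groups compared, the replicate number as a block, voom on recovered fragments with TMM factors, and leaving out each library. Leaving out libraries for the ratios and the voom counts by direction were chosen after seeing the data. The 8 genes, the lists and the ratios were chosen with earlier results of these data known. Named beside the 8 were further pathway genes that were DEGs, the most abundant tested gene of each role, and for each DEG of the 8 the 3 genes most like it among the upper 75% by mean level, clone names left out. A further gene of the list and a ratio with it enter the counts and the adjustment and are not reported here.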

Additional observations from a re-analysis of the deposited data

How the results depend on the processing

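Over 16 alternatives for each comparison, F2r, F2rl1, F3, Thbd, Plat and Plaur kept their direction and their call in Ep2 against Ctrl, except that Thbd was not tested with the filter of 5 FPKM. Plau lost that call with no filter (adjusted p = 0.0592) and with only the groups compared (adjusted p = 0.0518), where it gained one in Ep1 (adjusted p = 0.0146). The number of the 8 genes called in Ep1 ranged from 1 to 3 when 1 library was left out, with 1 without Ctrl replicate 2, and from 2 to 3 under the other settings. The further pathway genes called in Ep1 numbered 1 with no filter, 4 with only the groups compared, 4 of 19 tested with voom and 0 to 6 when 1 library was left out, beside 2. Calls over all genes in Ep1 shifted too, beside 1324 of 11727. They were 396 of 26717 with no filter, 2217 of 11345 with only the groups compared and 1922 of 14112 with voom. They ranged from 192 to 2192 when 1 library was left out. In Ep2 against Ep1 the further pathway genes called numbered 7 after median-centring, 5 of the 19 genes it tested with voom and 3 to 5 when 1 library was left out, beside 3. Over all genes, the calls there were 5357 of 11727 after median-centring and 5856 of 14112 with voom. They ranged from 4123 to 5184 when 1 library was left out, beside 5156. Values near 0 changed sign: when 1 library was left out, Thbd in Ep1 ranged from -0.046 (without Ep1 replicate 1) to 0.10 and was also below 0 without Ctrl replicate 2 (-0.00055), Tfpi in Ep2 ranged from -0.047 (without Ep2 replicate 3) to 0.057 and was -0.016 and -0.0078 without Ctrl replicate 2 and Ep2 replicate 2, and Plau between the doses ranged from -0.0049 (without Ep2 replicate 3) to 0.26 (without Ep2 replicate 1). Without Ep2 replicate 3, Tfpi passed between the doses at -0.16 (adjusted p = 0.0477). The cause was not tested.

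Same-numbered libraries of different groups did not deviate together (correlations from -0.06 to 0.07), so the numbers were not taken as pairs. With the replicate number as a block, 2, 7 and 5 of the 8 genes were called in the 3 comparisons and 2, 9 and 3 of the further genes, the counts found without it, and over all genes 1051, 6110 and 4983 were called beside 1324, 6236 and 5156.

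Over all genes, the calls in Ep1 ranged from 192 of 11658 tested without Ctrl replicate 2 to 2217 of 11345 with only the groups compared. Those in Ep2 ranged from 4836 of 7535 with the filter of 5 FPKM to 7059 of 14112 with voom. With no filter they were 5808 of 26717. The counts thus varied by a larger factor in Ep1. The number of genes tested also differed between settings, so the Ep2 range is not one of calling alone. DEGs over all genes numbered 93, 1075 and 692 in the 3 comparisons, 147, 1616 and 1101 with a pseudocount of 0.1, and 243, 2212 and 1553 with voom. With 3 libraries a group, and 73 to 254 fragments on Thbd, small changes of low genes could not be detected.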
